A study of Homo sapiens with 11 samples.

Results

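This account follows 9 genes of serine synthesis and folate-dependent one-carbon metabolism, PHGDH, PSAT1, PSPH, SHMT1, SHMT2, MTHFD1, MTHFD2, MTHFD1L and ALDH1L2, on 11 Affymetrix arrays of the human cell line MV4-11. They were picked by gene symbol with earlier results of these data known, so their shares below are not an independent test. Each symbol stood alone on exactly 1 transcript cluster, the array's set of probes for a locus. All 9 passed the filter on low levels and so were among the 12147 genes tested, of 22109 genes with a cluster of their own. MV4-11 is an established acute myeloid leukaemia line, and the study asked how its expression alters when RUNX family genes are knocked down or alkylating PIP conjugates are given.

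The knockdown experiment held 7 arrays with RUNX shRNAs, labelled shRUNX1, shRUNX2, shRUNX3, shRUNX1+shRUNX2, shRUNX1+shRUNX3, shRUNX2+shRUNX3 and the triple knockdown shRUNX1+shRUNX2+shRUNX3, and 1 array with a luciferase shRNA, shLuc. All 8 came from transduced cells that then spent 24 hours in doxycycline at 3 µM, so the shLuc cells had the same exposure. The compound experiment held 1 array each for cells given Chb-M' at 1 µM, Chb-50 at 1 µM, or DMSO, for 6 hours. The labels name no promoter for the shRNAs, no clone, and no separate transduction or day behind the arrays. Each condition therefore had 1 array, and the p-values below rest on how arrays of different conditions scatter once the model's terms are removed. That scatter could be technical in origin and can also hold joint effects of shRNAs that a model leaves out. It does not measure the spread between replicates.

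Cells make serine from a glycolytic intermediate: PHGDH oxidises 3-phosphoglycerate, PSAT1 adds the amino group and PSPH removes the phosphate. SHMT2 in mitochondria and SHMT1 in the cytosol pass a carbon from serine to tetrahydrofolate, giving glycine, and MTHFD2, MTHFD1L and ALDH1L2 oxidise or release that carbon in mitochondria while MTHFD1 handles it in the cytosol. The carbon goes into purines, thymidylate and methionine, and in many cell types the transcription factor ATF4 drives several of these genes.

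Levels are the deposited log2 values, so a difference of 1 is 2-fold, and levels of different genes are not set against each other because each cluster has its own probes. RUNX2 read 5.56 to 5.82 on the 4 arrays with its shRNA and 6.00 to 6.30 on the 4 without it. RUNX3 read 7.65 to 7.88 with its shRNA and 7.70 to 8.37 without it, the 7.70 being the array labelled shRUNX1. RUNX1 shares its only listed cluster with LOC100506403, and that cluster read 3.96 to 4.26 with the RUNX1 shRNA and 4.20 to 4.45 without it. The array labelled shRUNX1+shRUNX2, at 4.26, overlapped the arrays without the RUNX1 shRNA, so arrays are named here by their labels only. The 9 myeloid markers with a cluster had a mean level of 7.43 to 7.66 over the 11 arrays. The mean was 2.61 to 2.82 for 9 markers of other blood lineages and 3.07 to 3.31 for 8 epithelial or stromal markers, with 2 of each reaching the level filter of 3.8 (CD79A and ITGA2B, and KRT8 and KRT18). These means do set different clusters side by side and are a rough check only. Among the myeloid markers ITGAM read 3.84 to 4.49 and MPO 4.89 to 5.50, against 4.11 to 4.92 for CD79A, and the other myeloid markers read higher.

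Serine synthesis enzymes differed among themselves: PHGDH and PSAT1 were low on the 3 arrays that combine the RUNX1 shRNA with another RUNX shRNA, and PSPH was nearly level. PHGDH, the first enzyme of the pathway, read 6.80 on shRUNX1, 6.62 on shRUNX2, 6.94 on shRUNX3, 5.90 on shRUNX1+shRUNX2, 5.39 on shRUNX1+shRUNX3, 7.0 on shRUNX2+shRUNX3 and 5.62 on the triple knockdown, against 7.08 on shLuc. The 3 combined RUNX1 arrays lay below all other knockdown arrays, and shLuc was the highest. PSAT1, the aminotransferase, read 10.28, 9.98, 10.19, 9.32, 9.15, 10.17 and 9.35 on the same 7 arrays in that order, against 10.19 on shLuc. Its low arrays were the same 3, while the array labelled shRUNX1 was its highest. PSPH, the phosphatase that completes serine, read 6.61, 6.45, 6.47, 6.43, 6.45, 6.45 and 6.55, against 6.50 on shLuc. Its range of 0.18 over the 8 knockdown arrays compares with 1.69 for PHGDH and 1.13 for PSAT1.

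SHMT1, the cytosolic serine hydroxymethyltransferase, read 5.91, 5.84, 5.97, 5.71, 5.26, 6.08 and 5.48 on the 7 RUNX arrays, in the same order, against 5.87 on shLuc. It was lowest on shRUNX1+shRUNX3 and next lowest on the triple knockdown, and shRUNX1+shRUNX2 lay close under the remaining arrays. SHMT2, its mitochondrial counterpart, read 6.37, 6.37, 6.45, 6.36, 6.19, 6.37 and 6.19, against 6.43 on shLuc. The same 3 arrays came last for SHMT2 too, but within a range of only 0.26, and shRUNX1+shRUNX2 was under its neighbours by just 0.02.

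The enzymes that oxidise the folate-bound carbon did not share a pattern. ALDH1L2, which makes NADPH and carbon dioxide from 10-formyl-tetrahydrofolate in mitochondria, read 6.60, 6.33, 6.76, 5.52, 4.99, 6.69 and 4.84 on the 7 RUNX arrays, against 7.02 on shLuc. It had the widest range of the 9 genes, 2.18, with the 3 combined RUNX1 arrays well apart and every RUNX array under shLuc. The differences from shLuc all share that array and are not separate observations of a fall. MTHFD1, the cytosolic enzyme that interconverts folate one-carbon units in 3 activities, read 9.62, 9.64, 9.68, 9.38, 8.96, 9.69 and 9.14, against 9.65 on shLuc. Again the 3 combined arrays were lowest, and the other 5 arrays lay close together.

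MTHFD2, the mitochondrial dehydrogenase and cyclohydrolase, read 7.38, 7.21, 7.14, 7.26, 7.20, 7.24 and 7.22, against 7.01 on shLuc. Unlike PHGDH and ALDH1L2, it was above shLuc on all 7 RUNX arrays, by 0.13 to 0.37. All 7 differences share the same shLuc array, so they are not separate observations of a rise. How often shLuc was the lowest or highest knockdown array among all genes was not counted. MTHFD1L, which releases formate from mitochondria, read 7.53, 7.73, 7.87, 7.74, 7.53, 7.91 and 7.55, against 7.82 on shLuc. Its low arrays were shRUNX1, shRUNX1+shRUNX3 and the triple knockdown, and the array labelled shRUNX1+shRUNX2 was in the middle. RNA came from whole cultures, so fewer cells with a transcript and less of it per cell cannot be told apart.

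**Figure D1:**
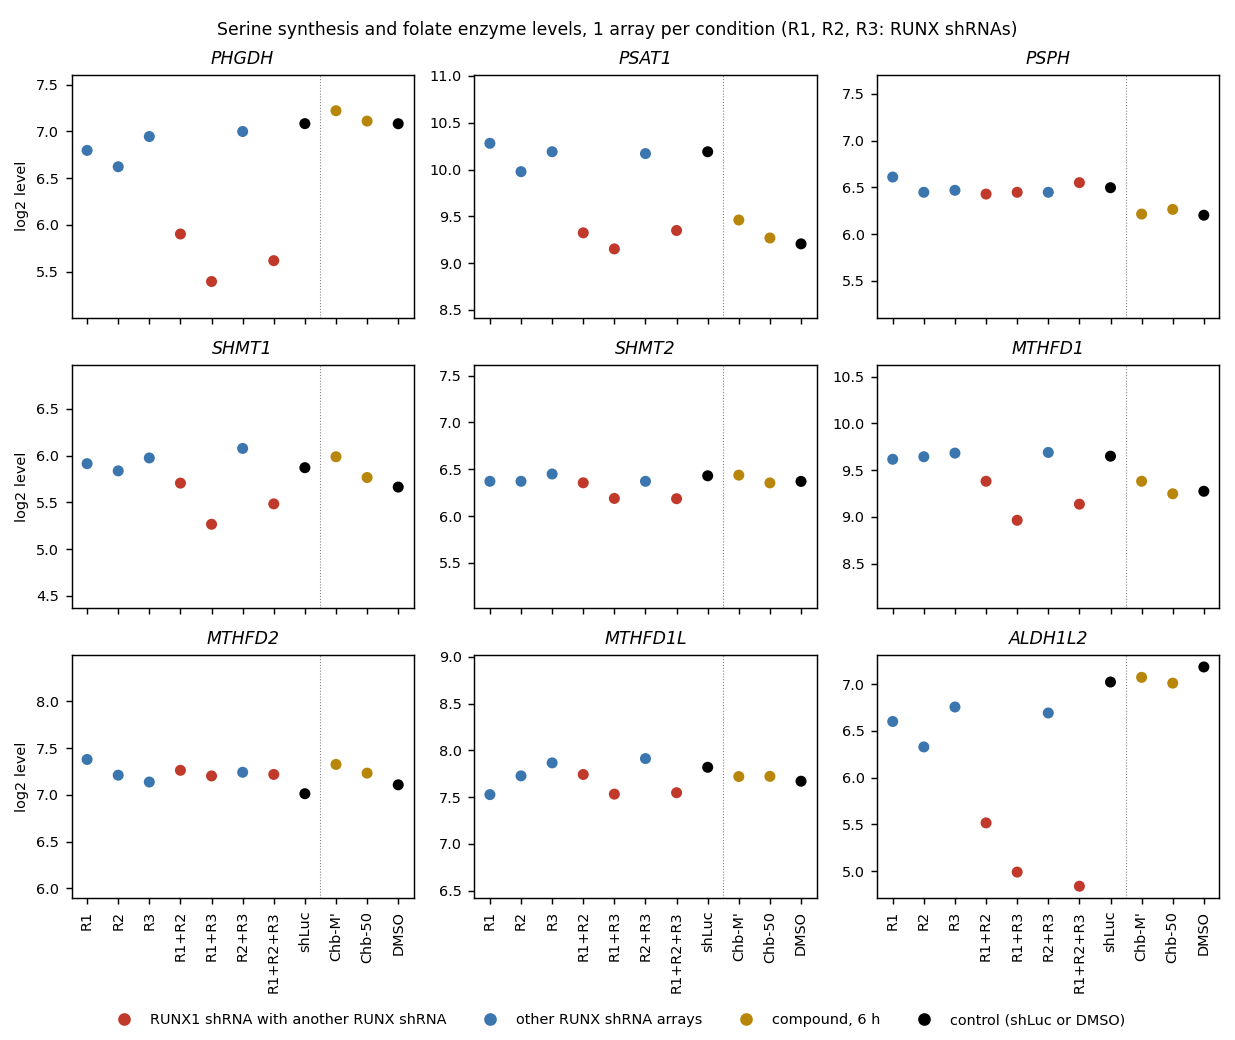
Log2 level (vertical axes, of equal span) of the 9 genes on each of the 11 arrays (horizontal axis; R1, R2 and R3 stand for the RUNX shRNAs), 1 point per array with no replicates. PHGDH, PSAT1 and ALDH1L2 lie lowest among the knockdown arrays on the 3 red ones that combine the RUNX1 shRNA with another, while PSPH and MTHFD2 stay within a range of 0.18 and 0.37 over the knockdown arrays.

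Promoter windows are shown for 3 members that differ in the motifs they hold. The RefSeq promoter table used here (GRCh38.p14) matched 6 of the 9 genes, and the 250 bases before each start were searched on both strands for TGATGNAA, the element read by ATF4 with C/EBP partners, for TGTGGT, a core read by RUNX proteins, and for CACGTG, the E-box read by MYC. PSPH, SHMT2 and ALDH1L2 had no window there and were not searched. The windows shown belong to PHGDH, with no match (chr1:119711684-119711933), to MTHFD1, with an E-box (chr14:64388103-64388352), and to MTHFD1L, the 1 gene of the 6 with an ATF4 type element (chr6:150866236-150866485). All 3 are on the plus strand, 5′ to 3′, with matches in capitals.
PHGDH: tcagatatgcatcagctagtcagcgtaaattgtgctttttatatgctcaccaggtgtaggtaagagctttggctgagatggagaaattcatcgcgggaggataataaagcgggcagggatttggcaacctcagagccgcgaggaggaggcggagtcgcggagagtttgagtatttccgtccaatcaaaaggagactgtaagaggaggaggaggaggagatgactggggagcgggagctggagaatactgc
MTHFD1: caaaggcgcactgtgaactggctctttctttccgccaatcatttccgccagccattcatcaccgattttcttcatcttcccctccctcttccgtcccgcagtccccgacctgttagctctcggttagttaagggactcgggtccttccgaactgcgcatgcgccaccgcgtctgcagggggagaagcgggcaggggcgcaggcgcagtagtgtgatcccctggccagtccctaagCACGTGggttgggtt
MTHFD1L: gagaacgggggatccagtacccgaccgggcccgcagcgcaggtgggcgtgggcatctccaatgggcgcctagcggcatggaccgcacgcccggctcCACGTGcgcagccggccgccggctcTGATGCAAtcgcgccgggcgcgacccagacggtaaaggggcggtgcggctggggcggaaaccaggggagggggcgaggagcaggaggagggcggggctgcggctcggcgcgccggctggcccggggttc
The capitals in MTHFD1 are CACGTG, 15 bases before the start. In MTHFD1L they are CACGTG, 154 bases before the start, and the TGATGNAA match, 129 bases before it. MTHFD1L has 4 listed starts, and a second one has both motifs in an overlapping window. The windows of PSAT1, SHMT1 and MTHFD2 matched none of the 3 motifs, and no window of the 6 genes searched matched TGTGGT. Over all 35116 windows of that length, 3.14% held TGATGNAA, 11.0% held TGTGGT and 6.34% held CACGTG. A match is a run of letters only, and these searches say nothing of what binds there.

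Of the 9 genes, 6 were lower on all 3 combined RUNX1 arrays than on the other 5 knockdown arrays. They were PHGDH, PSAT1, SHMT1, SHMT2, MTHFD1 and ALDH1L2, and the split was drawn after the levels were seen. Among all genes tested 10.4% were lower in this way and 10.9% were higher.

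Counted against shLuc at 2-fold, 7 of 63 pairs of a gene and a RUNX array were lower and 0 were higher, where 0.412% of all such pairs were lower over the genes tested. These are single arrays, so the count has no replicate check. On shRUNX1+shRUNX3 PHGDH was at 31.0% of its shLuc level, PSAT1 at 48.6% and ALDH1L2 at 24.4%, where 1.49% of all genes were 2-fold lower. On the triple knockdown PHGDH was at 36.2% and ALDH1L2 at 22.0%, where 0.873% of all genes were 2-fold lower. On shRUNX1+shRUNX2 PHGDH was at 44.1% and ALDH1L2 at 35.2%, where 0.115% of all genes were. These 2 genes were thus 2-fold lower on each of the 3 combined RUNX1 arrays. No member reached 2-fold on shRUNX1, shRUNX2, shRUNX3 or shRUNX2+shRUNX3, where 0.0988%, 0.0823%, 0.148% and 0.0741% of all genes did so in the lower direction.

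The full set of combinations lets each shRNA be read in 4 pairs of arrays that differ in that shRNA alone. For ALDH1L2 the RUNX1 shRNA went with a difference of -0.42 between shRUNX1 and shLuc and of -0.81 between shRUNX1+shRUNX2 and shRUNX2. With the RUNX3 shRNA already present the differences were -1.77 between shRUNX1+shRUNX3 and shRUNX3, and -1.85 between the triple knockdown and shRUNX2+shRUNX3. PHGDH gave -0.29, -0.72, -1.55 and -1.38 in these 4 pairs. Both genes were thus lower in every RUNX1 pair, and by most where the RUNX3 shRNA was also there. PSAT1 gave 0.09, -0.65, -1.04 and -0.82, and SHMT1 gave 0.04, -0.13, -0.71 and -0.59. Neither was lower when the RUNX1 shRNA was the only RUNX shRNA. MTHFD1 gave -0.03, -0.26, -0.72 and -0.55, with the first pair close to 0.

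Over the 9 genes, 4 were lower in all 4 RUNX1 pairs, namely PHGDH, SHMT2, MTHFD1 and ALDH1L2, where 13.0% of all genes tested were. In the RUNX2 pairs 2 of 9 were, SHMT2 and ALDH1L2, where 6.34% of all genes were, and in the RUNX3 pairs 0 of 9 were, where 7.27% of all genes were. For PHGDH the RUNX3 pairs gave -0.14 between shRUNX3 and shLuc, -1.40 between shRUNX1+shRUNX3 and shRUNX1, 0.38 between shRUNX2+shRUNX3 and shRUNX2, and -0.28 between the triple knockdown and shRUNX1+shRUNX2. The sign differed between pairs, and the one wide gap was the pair that has the RUNX1 shRNA and no RUNX2 shRNA. For ALDH1L2 the same 4 differences were -0.27, -1.61, 0.36 and -0.68, with the same pair the widest. For PHGDH the RUNX2 pairs without the RUNX3 shRNA gave -0.46 (shRUNX2 and shLuc) and -0.89 (shRUNX1+shRUNX2 and shRUNX1). With the RUNX3 shRNA they gave 0.05 (shRUNX2+shRUNX3 and shRUNX3) and 0.22 (triple knockdown and shRUNX1+shRUNX3). In the same order ALDH1L2 gave -0.69, -1.085, -0.06 and -0.15, and PSAT1 gave -0.215, -0.95, -0.02 and 0.20.

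**Figure D2:**
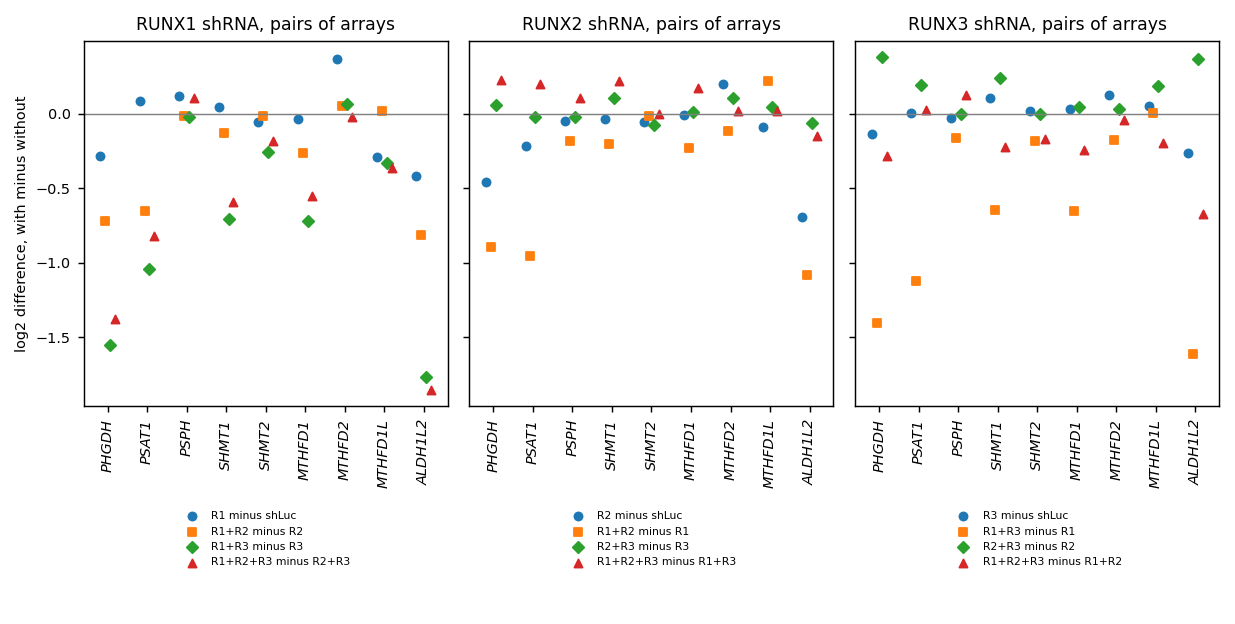
Log2 difference (vertical axis) of paired arrays with minus without the RUNX1 (left), RUNX2 (middle) or RUNX3 (right) shRNA, other shRNAs equal, for the 9 genes (horizontal axis), 1 marker for each of 4 pairs of single arrays (R1, R2 and R3 stand for the shRNAs). In the left panel PHGDH and ALDH1L2 lie under 0 in all 4 pairs, from -0.29 to -1.55 and from -0.42 to -1.85, and PSPH lies near 0 throughout.

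Fitted together, ALDH1L2 and PHGDH had among the lowest RUNX1 estimates of any gene, yet none of the 9 genes passed the test. In the additive limma fit on the 8 knockdown arrays, with a term for each shRNA, the RUNX1 estimate of ALDH1L2 was -1.21 (SE 0.276, limma adjusted p = 0.0995) and was the lowest of all 12147 genes. That of PHGDH was -0.98 (SE 0.248, limma adjusted p = 0.11) and ranked 3 from the lowest. PSAT1 was estimated at -0.61, MTHFD1 at -0.39, SHMT1 at -0.35, MTHFD1L at -0.24 and SHMT2 at -0.13, with limma adjusted p from 0.133 to 0.278. MTHFD2, at 0.11, and PSPH, at 0.04, were the 2 positive estimates. MTHFD1 was the 1 member of 9 that was lower on all 4 arrays with the RUNX1 shRNA than on the 4 without it, as 4.73% of all genes were. Adjusted over all genes, 0 of 9 members were called by limma, where 0.0% of the 12147 genes were. At an unadjusted p under 0.05, 6 of 9 members passed, beside 21.2% of all genes.

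That result depended on 1 array and on the model's terms. Without the array labelled shRUNX1, 4 of 9 members were called lower by limma, namely ALDH1L2, PHGDH, PSAT1 and MTHFD1, where 3.75% of all genes were. Leaving out any other single knockdown array gave 0 of 9. With all arrays kept and pairwise interaction terms added, limma called PHGDH and ALDH1L2 lower, where 1.97% of all genes were.

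For ALDH1L2, PHGDH and PSAT1 the RUNX2 and RUNX3 estimates of the same fit lay closer to 0 than the RUNX1 ones. For RUNX2 the estimates were -0.50 for ALDH1L2, -0.27 for PHGDH and -0.25 for PSAT1, and the other 6 lay between -0.04 and 0.05. For RUNX3 they were -0.55 for ALDH1L2, -0.36 for PHGDH, -0.23 for PSAT1, -0.20 for MTHFD1 and -0.13 for SHMT1, and the other 4 lay between -0.08 and 0.01. Without shRUNX1 the RUNX3 estimate was -0.25 for ALDH1L2 and -0.0855 for PHGDH, and without shRUNX1+shRUNX3 it was -0.31 and -0.12 for the same genes. Limma called 0 of 9 members for either term, as it called 0 of the 12147 genes, and 0 of 9 had an unadjusted p under 0.05, beside 4.88% of all genes for RUNX2 and 9.39% for RUNX3. Whether the 3 terms differ from each other was not tested.

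Where the RUNX1 and RUNX3 shRNAs were present together, ALDH1L2, PHGDH and MTHFD1 fell. This comparison set shRUNX1+shRUNX3 and the triple knockdown against shRUNX2 and shLuc, within a limma fit of the 8 arrays that had a RUNX1 by RUNX3 term. ALDH1L2 averaged 4.92 ± 0.107 on the arrays with both shRNAs and 6.68 ± 0.491 on those with neither (SD, n = 2 each). The limma estimate was -1.76 (SE 0.248, adjusted p = 0.017), which is 29.5% of the level, and only 1 of the 12147 genes had a lower one. PHGDH averaged 5.51 ± 0.158 with both and 6.85 ± 0.326 with neither (SD, n = 2 each). Its limma estimate was -1.35 (SE 0.261, adjusted p = 0.0342), or 39.3% of the level, and ranked 9 from the lowest. MTHFD1 averaged 9.05 ± 0.122 with both and 9.65 ± 0.00491 with neither (SD, n = 2 each), with a limma estimate of -0.60 (SE 0.107, adjusted p = 0.0295), or 66.2% of the level.

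Thus 3 of 9 members were called lower and 0 higher, where 4.63% of all genes tested were called lower and 8.16% were called in either direction. Both the members and this comparison were chosen with earlier results of these data known. At an unadjusted p under 0.05, 7 of 9 members passed, beside 25.2% of all genes. The members SHMT1, PSAT1, SHMT2 and MTHFD1L had lower levels that did not pass limma's test. SHMT1 was estimated at -0.48 (adjusted p = 0.0576), PSAT1 at -0.83 (adjusted p = 0.11), SHMT2 at -0.21 (adjusted p = 0.128) and MTHFD1L at -0.23 (adjusted p = 0.187). With the 3 called genes, 7 of 9 members were lower on both arrays with the 2 shRNAs than on both with neither, as 25.9% of all genes were. PSAT1 had a lower estimate than MTHFD1 and a larger error, SE 0.257 against 0.107. Its level on shRUNX1+shRUNX2, 9.32, lay beside those of the 2 arrays with both shRNAs. MTHFD2 was at 0.10 and PSPH at 0.03. The median of the 9 estimates was -0.48, beside 0.02 over all genes tested.

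These calls rested on single arrays. Limma called 0 of 9 members lower without shRUNX2 (0.0165% of all genes), without shLuc or without shRUNX1+shRUNX3 (0.0% of all genes each). At an unadjusted p under 0.05, 5 of 9 members passed without shRUNX2, beside 2263 of the 12147 genes. The same count was 4 of 9 without shLuc, beside 2006 genes, and 4 of 9 without shRUNX1+shRUNX3, beside 1978 genes. It called only ALDH1L2 without shRUNX3 or without shRUNX2+shRUNX3 (1.65% of all genes each) and without the triple knockdown (2.0%). Leaving out shRUNX1 or shRUNX1+shRUNX2 gave 5 of 9, with PSAT1 and SHMT1 added (5.38% of all genes each).

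Genes of DNA replication were also lower with both shRNAs than with neither, as 7 of the 9 members were, while PSPH and MTHFD2 were not. All 28 S phase genes examined were called lower in the same comparison, where 4.63% of all genes were, with a median of -0.87. Relative to shLuc their mean level was -0.41 on shRUNX1+shRUNX2, -0.88 on the triple knockdown and -1.03 on shRUNX1+shRUNX3, and between -0.17 and 0.02 on the other 4 RUNX arrays. On shRUNX1+shRUNX2 PHGDH was at -1.18 and ALDH1L2 at -1.51 relative to shLuc. The part of the S phase genes in the result on the 9 genes was not tested.

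The joint difference exceeded the sum of the separate ones in size for the genes that moved most, but this excess did not pass the test. The RUNX1 by RUNX3 interaction was -1.19 for ALDH1L2 (SE 0.35, limma adjusted p = 0.3), -0.96 for PHGDH (SE 0.369, limma adjusted p = 0.373), -0.61 for SHMT1 (SE 0.16, limma adjusted p = 0.29) and -0.49 for MTHFD1 (SE 0.152, limma adjusted p = 0.306). PSAT1 stood at -0.65, and all 9 estimates were negative. Without shRUNX1 the interaction was -0.18 for PSAT1, -0.55 for PHGDH and -0.80 for ALDH1L2, and without shRUNX1+shRUNX3 it was -0.35, -0.63 and -0.96 for the same genes. Limma called 0 of 9 members, and 0.0% of all genes. At an unadjusted p under 0.05, 4 of 9 members passed, beside 12.7% of all genes. A RUNX1 by RUNX2 interaction, added after the data had been seen, lay between -0.26 and 0.14 for the 9 genes, with 0 called by limma, 0 of 9 at an unadjusted p under 0.05 and 2.35% of all genes at that level. This term averages over arrays with and without the RUNX3 shRNA, between which the RUNX2 pairs of PHGDH, PSAT1 and ALDH1L2 differed.

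**Figure D3:**
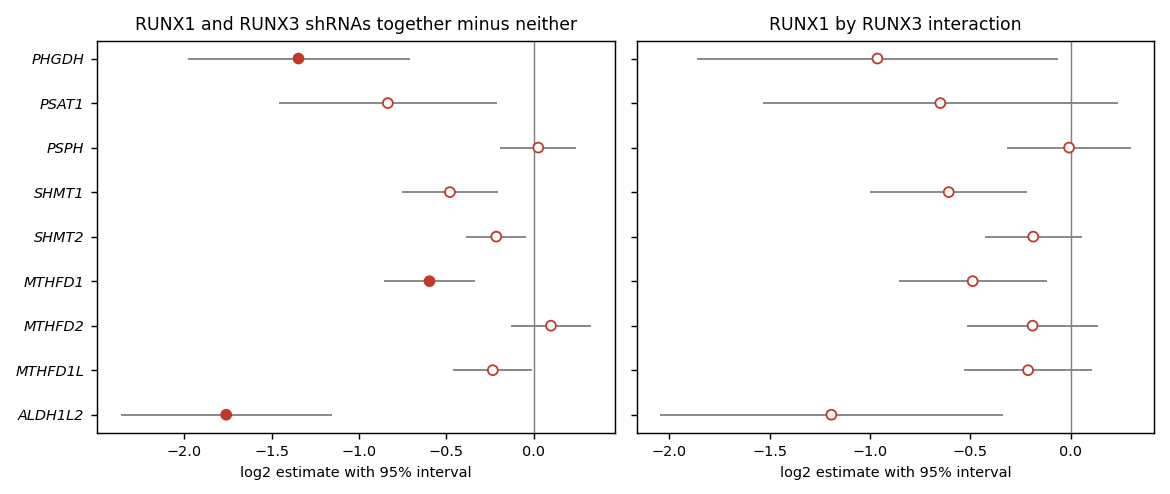
Log2 estimates (horizontal axes) for the 9 genes (vertical axis) with 95% intervals from limma: arrays with both the RUNX1 and RUNX3 shRNAs minus arrays with neither (left), and the RUNX1 by RUNX3 interaction (right). Filled circles mark the 3 genes called after adjustment over 12147 genes, ALDH1L2 (-1.76), PHGDH (-1.35) and MTHFD1 (-0.60), and no gene is called on the right.

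The rest of the pathway was uneven in the comparison of both shRNAs with neither. Of 8 other folate enzymes tested, 2 fell and 0 rose, where 4.63% of all genes fell. They were GGH, which trims the glutamate tail of folates, at -1.11 (limma adjusted p = 0.0126), and TYMS, which spends a folate carbon on thymidylate, at -1.05 (limma adjusted p = 0.0158). The highest of that list were MTFMT, which formylates the mitochondrial initiator tRNA, at 0.17 and FTCD, an enzyme of histidine breakdown, at 0.08, neither called. The list's median was -0.01, near the 0.02 of all genes. Among 11 transporters of folate, serine or related amino acids, 10 had negative estimates, 2 fell and 0 rose, where 5611 of the 12147 genes had negative estimates and 4.63% fell. SLC1A5, a glutamine and neutral amino acid exchanger, fell by 0.73 (limma adjusted p = 0.0101) and SLC1A4, which carries serine and alanine, fell by 0.49 (limma adjusted p = 0.0242). The highest were SFXN3, of the family of mitochondrial serine carriers, at 0.04 and SLC19A1, the reduced folate carrier, at -0.09. The median of the transporters was -0.39.

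Among 10 genes of glycine cleavage and serine use, 1 fell, where 4.63% of all genes fell. It was SPTLC1, a subunit of the enzyme that joins serine to a fatty acid for sphingolipids, at -0.34 (limma adjusted p = 0.0407). CBS, which joins serine to homocysteine, had the lowest estimate, -0.69, and was not called. AMT, of the glycine cleavage system, was at 0.22 and PTDSS2, which makes phosphatidylserine, at 0.11. Of 7 methionine cycle genes 1 rose, where 429 of the 12147 genes rose. It was MAT2B, the regulatory subunit of methionine adenosyltransferase, at 0.53 (limma adjusted p = 0.0234). GNMT was at 0.22, MAT2A at -0.19 and AMD1 at -0.13, none called. Limma called 0 of 11 purine synthesis genes, with 3 of 11 at an unadjusted p under 0.05, beside 25.2% of all genes. The lowest were PPAT, the first committed enzyme, at -0.59 and PRPS1, which makes its substrate, at -0.51, and the highest ADSL at 0.12 and IMPDH1 at 0.09.

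None of the 10 known regulators of serine synthesis tested was called, and their estimates lay between -0.19 and 0.27. ATF4 was at -0.03, MYC at 0.02 and PKM at -0.02 in the same comparison. CEBPB was at 0.09, CEBPG at -0.19, DDIT3 at 0.27, NFE2L2 at 0.17, MYCN at 0.12, KDM4C at 0.13 and EHMT2 at 0.19. Limma thus called 0 of 10, with 1 of 10 (EHMT2) at an unadjusted p under 0.05, beside 25.2% of all genes. These are RNA levels from 1 cluster per gene, so the protein amount, forms and activity of the regulators were not measured. Of 14 genes that ATF4 is known to drive under stress, 2 of which (CEBPB and CTH) are also in other lists, 4 fell and 0 rose. Over all genes tested, 4.63% fell. ASNS, asparagine synthetase, was at -0.82 (limma adjusted p = 0.0101), AARS1, alanyl-tRNA synthetase, at -0.54 (adjusted p = 0.0478), VLDLR, a lipoprotein receptor, at -0.50 (adjusted p = 0.0463) and SLC7A5, a large amino acid transporter, at -0.46 (adjusted p = 0.0329). The highest, not called, were DDIT4 at 0.46 and SLC7A11, the cystine carrier, at 0.30.

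**Figure D4:**
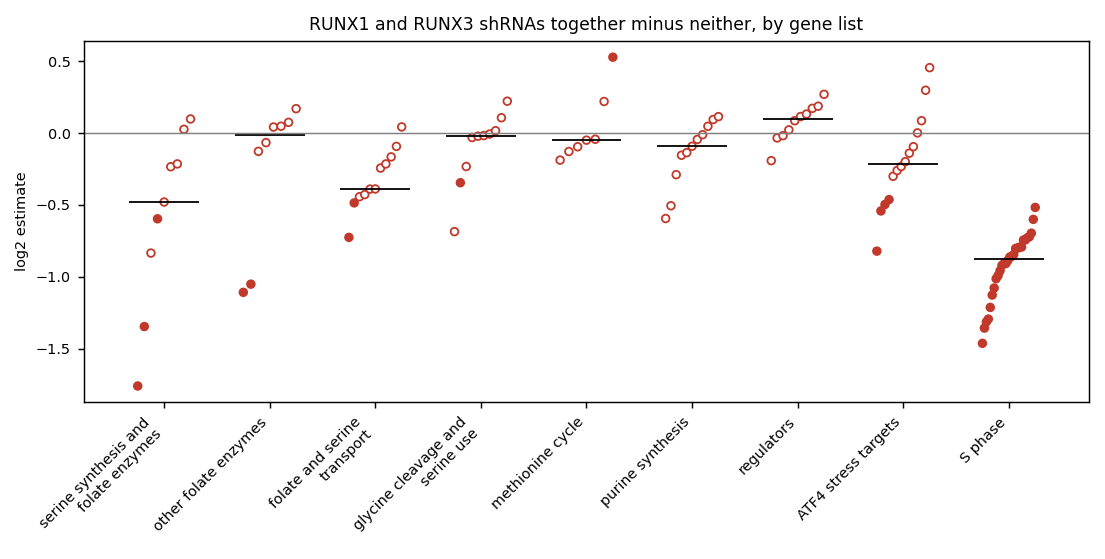
Log2 estimate (vertical axis) of each tested gene, arrays with both the RUNX1 and RUNX3 shRNAs minus arrays with neither, by gene list (horizontal axis). Circles are genes, filled where called by limma over all genes, and bars are list medians: -0.48 for the 9 enzymes, -0.39 for transport, 0.10 for regulators and -0.87 for S phase.

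The genes whose levels ran most like each member over the 11 arrays were looked up among 10570 protein-coding genes tested. For PHGDH the closest was ALDH1L2, with a Pearson r of 0.987, and next came LRRC59 (r = 0.98) and CKS1B (r = 0.974). For ALDH1L2 the closest was PHGDH, then SPIN4 (r = 0.982) and LMNB1 (r = 0.979). So the first enzyme of serine synthesis and the mitochondrial formyl-folate dehydrogenase were each other's nearest gene on these arrays. For PSAT1 the closest were SLC7A1 (r = 0.971), SUPT16H (r = 0.966) and TIPIN (r = 0.935), while PHGDH, the preceding step of the pathway, was at r = 0.45. For MTHFD2 they were TMUB1 (r = 0.901), UCP2 (r = 0.897) and MARVELD1 (r = 0.874), and its r with the other 8 members lay between -0.38 and 0.14. All points share these 11 arrays, of which the same 3 are low for several members, and the 2 experiments differ in level for PSAT1.

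At 6 hours none of the 9 genes reached 2-fold with either compound, or passed a test whose limits follow. PHGDH read 7.22 on Chb-M' and 7.11 on Chb-50, against 7.08 on DMSO. ALDH1L2 read 7.07 on Chb-M' and 7.01 on Chb-50, against 7.18 on DMSO. The 2 genes with the widest spread among the knockdown arrays were thus nearly level here. PSAT1 read 9.46 on Chb-M' and 9.27 on Chb-50, against 9.20 on DMSO, and SHMT1 read 5.99 on Chb-M' and 5.77 on Chb-50, against 5.66 on DMSO. MTHFD2 read 7.32 on Chb-M' and 7.23 on Chb-50, against 7.11 on DMSO. For these 3 genes Chb-M' was the highest array and DMSO the lowest. The other 4, PSPH, SHMT2, MTHFD1 and MTHFD1L, spanned 0.05 to 0.13 over the 3 arrays.

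A limma fit over all 11 arrays lends the compound arrays the spread of the knockdown arrays and assumes that they vary alike. In simulated data, 50 genes were shifted by a log2 of -2 on Chb-M' and on the arrays with both the RUNX1 and RUNX3 shRNAs. The fit called 0% of them for Chb-M' minus DMSO, so a lack of calls cannot show that a member is unchanged. Chb-M' minus DMSO ranged from -0.11 for ALDH1L2 (95% interval -1.41 to 1.19) to 0.32 for SHMT1 (95% interval -0.32 to 0.97). Chb-50 minus DMSO ranged from -0.17 for ALDH1L2 (95% interval -1.47 to 1.12) to 0.12 for MTHFD2 (95% interval -0.23 to 0.48). Intervals were widest for the genes that spread most on the knockdown arrays, as the fit's construction sets. For Chb-M', 0 of 9 members were called, beside 0.609% of all genes, and 0 of 9 reached 2-fold, beside 0.873% of all genes. For Chb-50, 0 of 9 were called, beside 0.0%, and 0 of 9 reached 2-fold, beside 0.296%. At an unadjusted p under 0.05 limma passed 0 of 9 for either, beside 13.9% of all genes for Chb-M' and 9.17% for Chb-50.

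Between the 2 compounds, given at the same dose and time, no member passed the test or reached 2-fold. The labels give no structural difference between them. Chb-M' minus Chb-50 was 0.22 for SHMT1 (95% interval -0.42 to 0.87), 0.19 for PSAT1 (95% interval -0.79 to 1.17), 0.11 for PHGDH (95% interval -1.06 to 1.28) and 0.06 for ALDH1L2 (95% interval -1.23 to 1.36). Limma called 0 of 9 members and 0.0% of all genes, and 0 of 9 reached 2-fold, beside 0.198% of all genes. At an unadjusted p under 0.05 it passed 0 of 9 members, beside 7.15% of all genes. For PSPH, SHMT1, SHMT2, MTHFD1, MTHFD2 and MTHFD1L the intervals of all 3 compound comparisons lay inside 2-fold. For PHGDH, PSAT1 and ALDH1L2 they did not, so a 2-fold difference in these was within what the fit allowed.

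**Figure D5:**
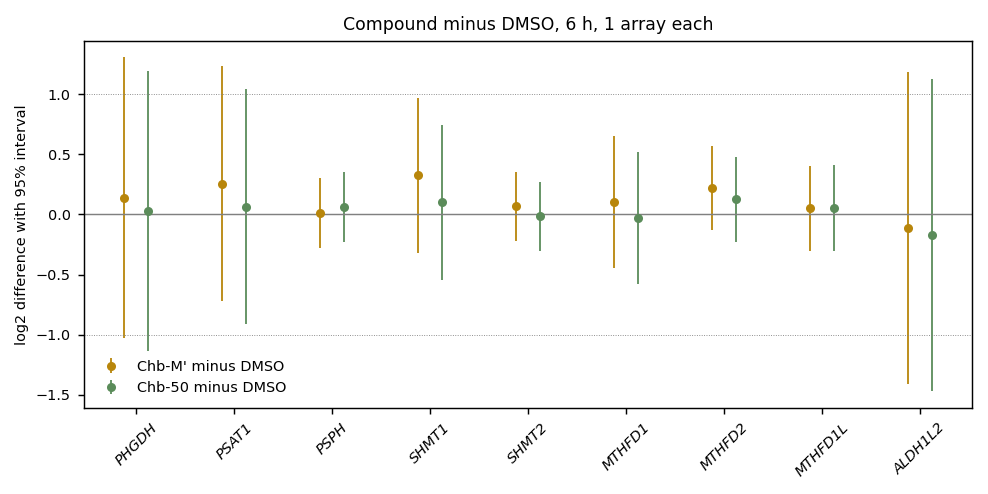
Log2 difference from DMSO at 6 hours (vertical axis) of the 9 genes (horizontal axis) for Chb-M' and Chb-50, 1 array each, with 95% intervals from the pooled limma fit. Dotted lines mark 2-fold, and every point lies between -0.17 and 0.32.

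The wider pathway was likewise without calls after Chb-M', under the same limit of the test. Limma called 0 genes in each of the 7 pathway and regulator lists, beside 0.609% of all genes. Among regulators KDM4C, a histone demethylase, had the lowest difference, -0.86 (limma adjusted p = 0.0546). Among the ATF4 stress targets SESN2 was highest at 1.40 (limma adjusted p = 0.0871), then DDIT4 at 0.63, and TRIB3, at -0.21, and VLDLR, at -0.08, were lowest. TYMS was at 0.26 and MTHFD2L at 0.10, with MTR at -0.31 and GGH at -0.25 the lowest folate enzymes. Transporters ran from SLC6A9 at -0.33 and FOLR1 at -0.26 to SFXN1 at 0.16 and SLC38A2 at 0.20. Genes of glycine and serine use ran from SPTLC2 at -0.27 and SPTLC1 at -0.13 to PTDSS2 at 0.21 and GCAT at 0.24, and those of the methionine cycle from GNMT at -0.19 and MAT2A at -0.03 to AHCYL1 at 0.18 and MTAP at 0.27. The values of these 3 lists lay inside 2-fold. PRPS1 at 0.52 and PPAT at 0.24 were the highest purine genes, in contrast to their negative estimates under the RUNX1 and RUNX3 shRNAs. The S phase genes had positive differences in 26 of 28 cases with a median of 0.38. Over all genes the median was 0.02, and 5404 of 12147 were negative. For Chb-50 minus DMSO the S phase median was 0.24, with 2 of 28 negative. Both differences share the 1 DMSO array. The S phase mean level was 7.97 on DMSO, 8.35 on Chb-M', 8.235 on Chb-50 and 8.34 on shLuc. The part of the S phase genes in these values was not tested.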

How the data were processed

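RNA from 11 MV4-11 cultures was read on Affymetrix arrays after labelling as biotinylated cDNA with the WT PLUS kit, per the labels' protocols. The authors deposited 1 log2 level per transcript cluster and array. The tools named, per the submitters' processing notes, are RMA, Transcriptome Analysis Console 1.0 and Affymetrix Expression Console 1.3.1, and their roles are not stated. That the deposited values are log2 was read from their range, 0.48 to 12.74, with array medians over tested genes of 5.86 to 5.91. For the probes, a genome build was not given in the sources used here. Signal over background is unknown, since detection calls were not used, and having 11 arrays limits the precision.

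Of 53617 clusters, 23558 carried 1 gene symbol in the platform annotation, 2155 several and 27904 none. Entrez identifiers of 22271 matched RefSeq (GRCh38.p14), and 3 symbols were updated. The 618 genes with several clusters were given the one with the highest mean. The test took genes with a highest level of at least 3.8, which is the median over 1-symbol clusters and arrays.

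Fits used limma 3.58.1 in R 4.3.3 with eBayes, Benjamini-Hochberg adjustment over 12147 genes and a threshold of 0.05. The additive fit had 4 residual degrees of freedom and the interaction fit 3, so lone arrays are assumed to vary alike. The compound fit had 1 term for each array of that experiment. Scripts were tested on simulated data. Alternatives changed the level filter, scaling, cluster choice, eBayes trend, model terms, fold and the arrays included.

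The 9 members, the gene lists and the tests were chosen with earlier results of these data known. Named genes were the members, the RUNX genes, all regulators, the 2 highest and 2 lowest genes of each other pathway list for both shRNAs against neither and for Chb-M', and the 3 genes most like PHGDH, PSAT1, ALDH1L2 and MTHFD2. Marker and S phase lists are given in sum, and the lowest purine genes and other regulators after Chb-M' are not named. EHMT2 as the 1 regulator under an unadjusted p of 0.05, and AARS1, VLDLR and SLC7A5 as the remaining calls of a list, were singled out after their values were seen. Listed genes without a cluster of their own are not analysed here.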

Additional observations from a re-analysis of the deposited data

How the results depend on the processing

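No paired analysis was possible because every label carries replicate number 1, so that no replicate block could be fitted; the array pairs in the report differ in 1 shRNA and compare conditions. Apart from leaving out arrays, the results on these 9 genes kept their direction and their side of the threshold in 541 of 549 values. When 1 array was left out, they did so in 528 of 576. Both counts include estimates that could not move. Each compound array has its own term, so dropping a knockdown array left compound estimates unchanged (PHGDH, Chb-M' minus DMSO, 0.1388 throughout). Taking the mean over clusters left member estimates unchanged, as did adding the compound arrays to the knockdown fits. The counts therefore overstate how well the estimates withstood these changes. Members called for the RUNX1 shRNA numbered 2 (PHGDH and ALDH1L2, beside 391 of 12147 genes) with pairwise interaction terms, against 0 in the additive fit. They ranged from 0 to 4 on leaving out arrays, with 4 without shRUNX1. Members called for both shRNAs against neither numbered 1 (ALDH1L2, adjusted p = 0.029) with no level filter, 2 with pairwise terms, and 4 (SHMT1 added) with a stricter filter or an intensity trend, against 3. They ranged from 0 to 5 on leaving out arrays. The causes were not tested. Over all genes this comparison called 484 with no filter, 1520 with the trend and 544 with pairwise terms, against 991. At 1.5-fold, 12 of 63 member and array pairs were lower than shLuc, against 7 at 2-fold, and 2.05% of all gene and array pairs were lower at 1.5-fold. The RUNX2 estimate of SHMT1, 0.02, became -7.5e-06 with centred arrays. On leaving out arrays, the RUNX2 estimates spanned -0.51 to 0.0072 for PHGDH, -0.44 to 0.0085 for PSAT1, -0.11 to 0.15 for SHMT1, -0.12 to 0.10 for MTHFD1, -0.00999 to 0.12 for MTHFD2 and -0.0226 to 0.11 for MTHFD1L. For ALDH1L2 they spanned -0.76 to -0.20. The RUNX3 estimates spanned -0.81 to -0.25 for ALDH1L2, -0.56 to -0.0855 for PHGDH, -0.27 to -0.0888 for MTHFD1, -0.36 to 0.0316 for PSAT1, -0.0529 to 0.02 for PSPH, -0.23 to 0.00089 for SHMT1, -0.0766 to 0.0491 for MTHFD2 and -0.0504 to 0.0793 for MTHFD1L. The interaction spanned -1.58 to -0.80 for ALDH1L2, -1.38 to -0.55 for PHGDH, -1.12 to -0.18 for PSAT1, -0.76 to -0.46 for SHMT1 and -0.63 to -0.34 for MTHFD1, and the joint estimate of PSAT1 -1.13 to -0.54. For PSPH the interaction spanned -0.10 to 0.0893 and the joint estimate -0.0669 to 0.12. Limma's adjusted p for the joint estimate, over arrays left out, was 0.0137 to 0.135 for ALDH1L2, 0.019 to 0.21 for PHGDH and 0.02 to 0.178 for MTHFD1. Taking the mean over clusters changed no member, since each has 1 cluster. Chb-M' called 7 genes with no filter and 49 with mean clusters, against 74, and 0 members in each case.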

Other observations

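The 2 control arrays differed for some of these enzymes. PSAT1 read 10.19 on shLuc and 9.20 on DMSO, a log2 difference of 0.99, and MTHFD1 read 9.65 on shLuc and 9.28 on DMSO, a difference of 0.38. PSPH differed by 0.29, SHMT1 by 0.21, MTHFD1L by 0.15 and SHMT2 by 0.06. PHGDH read 7.08 on both, and MTHFD2 (-0.10) and ALDH1L2 (-0.16) were the 2 members lower on shLuc. None of the 9 reached 2-fold, beside 0.971% of all genes tested. There is 1 array of each, with no test, and transduction, doxycycline and time cannot be told apart.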
